A study of Mus musculus with 8 samples.

Results

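Wnt ligands, receptors and modulators were examined in isolated pituitary gonadotropes of male and female mice. The members were the entries whose gene symbol names a Wnt ligand, a frizzled receptor, LRP5 or LRP6, a DKK or SFRP inhibitor, WIF1, NOTUM, an R-spondin, LGR4, LGR5 or LGR6, AXIN1 or AXIN2, NKD1 or NKD2, ZNRF3, RNF43, PORCN, beta-catenin, TCF7, TCF7L1, TCF7L2 or LEF1. They were 60 of the 55523 entries of the count table. Each sample held EGFP-positive cells obtained from the pituitary by flow sorting, and the mice were Ad4BP-BAC-EGFP animals, in which a bacterial artificial chromosome with the *Nr5a1* (Ad4BP) gene drives EGFP. All 8 samples share this genotype, and they were grouped by sex into 4 male and 4 female samples. The age of the mice and the number of animals per sample are not given in the sources used here. The labels do not say that the samples of a sex came from separate animals, so p-values measure the spread between these samples, which may be technical.

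Wnt ligands are secreted proteins that need the acyltransferase porcupine for their release and bind a frizzled receptor together with LRP5 or LRP6. Without a ligand, a complex built on axin marks beta-catenin for destruction, and with a ligand beta-catenin accumulates and acts with TCF and LEF factors on target genes such as *Axin2*. R-spondins bind LGR4, LGR5 and LGR6 and protect frizzled receptors from the ubiquitin ligases ZNRF3 and RNF43, whereas SFRP, DKK, WIF1 and NOTUM act against ligands or receptors. In the pituitary, beta-catenin is known for its role in the growth of the gland, and in gonadotropes for acting with NR5A1 on *Lhb*.

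Depth ranged from 18774578 to 31302588 counts in females and from 24782710 to 28621582 counts in male replicates 2 to 4, here called the retained males, and it was 22716536 counts in male replicate 1. Male replicate 1 was excluded in the study, and its values are given apart. In CPM, a count scaled to the depth of its library, *Nr5a1* had 16.3 CPM in this sample against 584 to 801 CPM in the retained males and 862 to 1266 CPM in females (log2 fold change, male over female, -0.61, SE 0.18, adjusted p = 0.130 by edgeR), without overlap between the sexes. The 5 gonadotrope markers *Nr5a1*, *Lhb*, *Fshb*, *Cga* and *Gnrhr* were present in all 8 samples, and their summed level ranged from 21488 to 34863 CPM in females and from 67930 to 75717 CPM in the retained males, with 28423 CPM in male replicate 1. Most of this sum came from the hormone genes *Cga*, with 13359 to 25090 CPM in females and 24630 to 50707 CPM in the retained males, and *Fshb*, with 1402 to 5699 CPM and 16894 to 30905 CPM (log2 fold change 3.13, adjusted p = 0.0449 by edgeR, between 0.0325 and 0.135 with 1 sample left out). *Lhb* was 4139 to 6519 CPM in females, above *Fshb* in each of them, and 6286 to 9610 CPM in the retained males. *Lhb* and *Gnrhr* overlapped between the sexes (log2 fold change 0.55 and 0.74, adjusted p = 0.189 and 0.318 by edgeR). The sum was thus higher in males while *Nr5a1* was not. Markers of other pituitary cells were abundant too, with *Gh*, the growth hormone gene of somatotropes, between 12394 and 57859 CPM in females, between 65329 and 142244 CPM in the retained males and at 30128 CPM in male replicate 1. The cells from which a member's reads came were therefore not resolved.

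The 5′ ends of *Axin2* and *Wnt9a* are shown because *Axin2* was the single member that passed the test between the sexes and *Wnt9a* was the Wnt ligand with the highest level per length. Each sequence is the 250 bases before the RefSeq start of the gene (GRCm38.p6, plus strand), at chr11:108920099-108920348 for *Axin2* and at chr11:59306680-59306929 for *Wnt9a*, and capitals mark GC boxes.
Axin2: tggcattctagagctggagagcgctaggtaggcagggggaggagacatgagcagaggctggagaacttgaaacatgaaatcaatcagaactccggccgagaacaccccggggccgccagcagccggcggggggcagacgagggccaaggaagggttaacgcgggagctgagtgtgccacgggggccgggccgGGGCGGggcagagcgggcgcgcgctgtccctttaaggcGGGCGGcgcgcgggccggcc
Wnt9a: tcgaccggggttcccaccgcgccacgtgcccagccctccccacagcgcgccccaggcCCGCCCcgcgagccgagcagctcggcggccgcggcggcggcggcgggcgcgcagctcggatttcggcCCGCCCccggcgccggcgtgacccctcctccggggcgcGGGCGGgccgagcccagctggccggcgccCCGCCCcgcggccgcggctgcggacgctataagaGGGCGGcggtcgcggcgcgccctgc
The GC content was 69.2% for *Axin2* and 84.4% for *Wnt9a*, and the median over the 32851 windows of this length in the RefSeq table was 52.4%. The GC box, searched as GGGCGG on both strands, was found 2 times before *Axin2* and 5 times before *Wnt9a*, and 32.7% of all windows held it. The TCF/LEF motif, searched as CTTTGAT on both strands, was in neither window, and 3.21% of all windows held it. The NR5A1 motif, searched as CAAGGTCA on both strands, was in neither window, and 1.33% of all windows held it. The members had 49 windows, of 39 genes, and 33 of the 49 held the GC box, 2 (of *Wnt5b* and *Wnt11*) the TCF/LEF motif and 0 the NR5A1 motif. A motif that was not found says only that these letters are not in the window.

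The first question was which members the isolated gonadotropes express. Of the 60 members, 31 reached 1 CPM in every one of the 7 samples without male replicate 1. The number at 1 CPM in every sample was 33 over the 3 retained males and 35 over the 4 females. In male replicate 1 taken alone it was 39, and counts over 1, 3 and 4 samples are not comparable. By this cut-off, 7 of 10 frizzled receptors and both co-receptors reached 1 CPM in all 7 samples. So did 4 of 19 ligands, 3 of 10 secreted inhibitors and 1 of 4 R-spondins. All 3 LGR receptors, both ubiquitin ligases, all 4 intracellular negative regulators, *Porcn*, *Ctnnb1* and 3 of 4 transcription factors did. A member under the cut-off is not thereby absent. *Wnt4* and *Wnt5b* had counts in every sample, and each was under it in 1 retained male, at 0.906 and 0.867 CPM. The cut-off takes no account of gene length. *Wnt1*, *Wnt3a*, *Wnt7a*, *Dkk4* and *Notum* had 0 counts in all 8 samples. The limit that such a count allows, set at 3 counts, was between 0.0921 and 0.146 CPM, and it covers counting error alone. A further 11 members had too few counts for the test between the sexes, and the highest value among these 16 untested members was 1.41 CPM, for *Wif1* in female replicate 1.

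**Figure D1:**
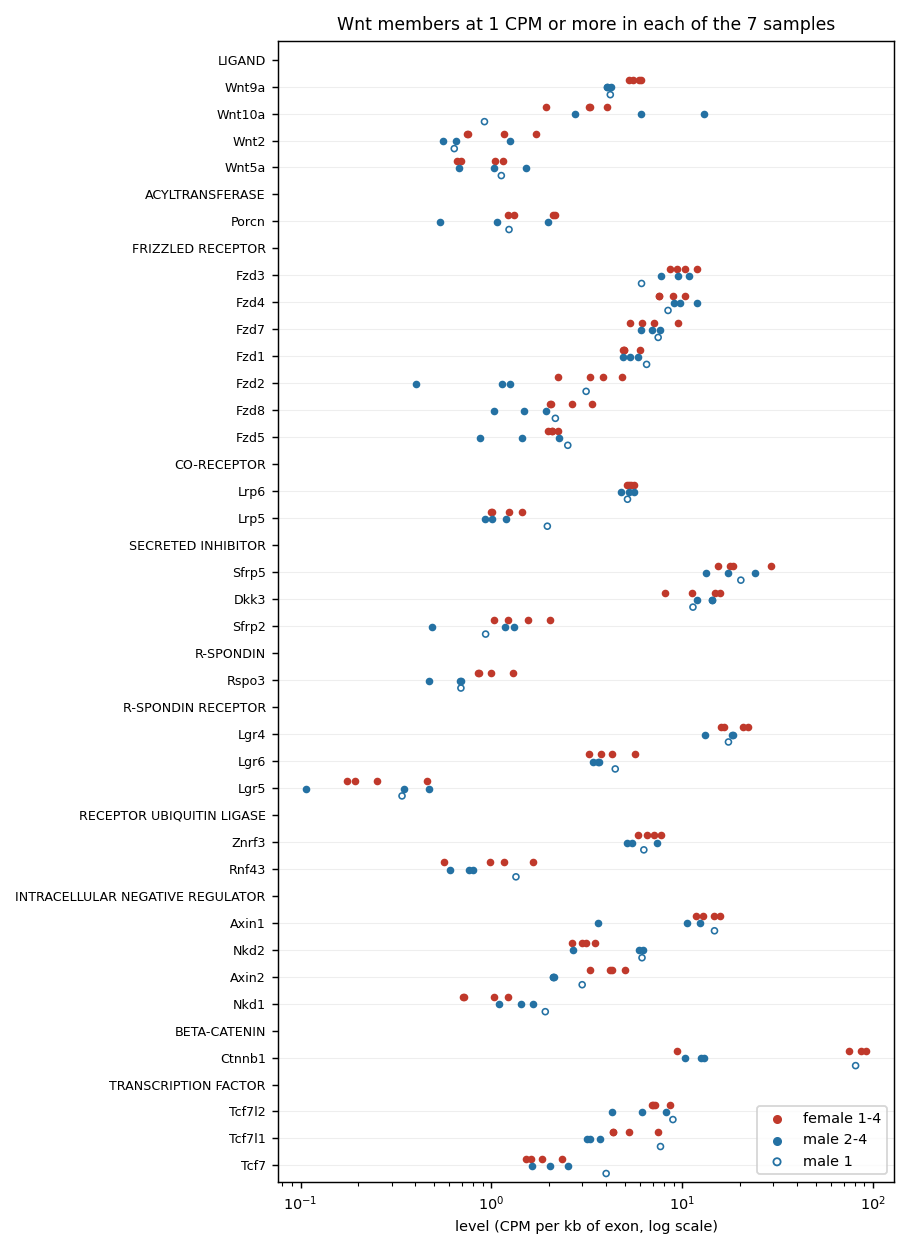
Level of each member that reached 1 CPM in all 7 samples, grouped by role. The x axis is CPM per kb of exon on a log scale, red points are the 4 females, filled blue points are male replicates 2 to 4 and open blue points are male replicate 1. *Ctnnb1* falls into a high and a low set of samples, whereas *Lrp6* lies near 5 CPM per kb in all 8.

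Levels were compared between genes as CPM divided by the exon length of the gene in kb, averaged over the 7 samples. Among the ligands, *Wnt9a* was 5.02 ± 0.911 CPM per kb (SD, n = 7) and *Wnt10a* was 4.90 ± 3.81 CPM per kb. *Wnt9a* was above *Wnt10a* in 5 of 7 samples, so their order was not the same in every sample. Together they made up most of the summed ligand level, with 35.2% for *Wnt9a* and 34.4% for *Wnt10a*. *Wnt2*, *Wnt5a*, *Wnt4* and *Wnt5b* followed, between 0.978 and 0.700 CPM per kb, and each was above the next in 4 to 6 of 7 samples. *Porcn*, which encodes porcupine, was 1.48 ± 0.608 CPM per kb. Of the 13 ligands below *Wnt5b*, *Wnt6* had the highest level, 0.294 ± 0.256 CPM per kb.

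Among the frizzled receptors, *Fzd3* was 9.76 ± 1.40 CPM per kb (SD, n = 7) and *Fzd4* was 9.30 ± 1.54 CPM per kb, and *Fzd3* was higher in 4 of 7 samples. *Fzd7* at 6.96 ± 1.37 CPM per kb was below *Fzd4*, and *Fzd1* at 5.27 ± 0.472 CPM per kb was below *Fzd7*, in all 7 samples. *Fzd2*, *Fzd8*, *Fzd5* and *Fzd9* were between 2.42 and 1.56 CPM per kb, and *Fzd6* and *Fzd10* were 0.192 and 0.110 CPM per kb. The summed level of the 10 frizzled receptors was between 34.9 and 50.1 CPM per kb in the 8 samples. Of the co-receptors, *Lrp6* was 5.28 ± 0.276 CPM per kb and *Lrp5* was 1.11 ± 0.183 CPM per kb, with *Lrp6* higher in all 7 samples. *Lrp6* had the smallest SD relative to its mean of the members named here.

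The secreted inhibitors were led by *Sfrp5*, which encodes a frizzled-related protein that binds ligands, and by *Dkk3*, a divergent member of the dickkopf family. *Sfrp5* was 19.3 ± 5.44 CPM per kb (SD, n = 7) and *Dkk3* was 12.9 ± 2.63 CPM per kb, and *Sfrp5* was higher in 6 of 7 samples. *Sfrp2* and *Sfrp4* were 1.26 and 1.15 CPM per kb. *Dkk1* had 15 counts in female replicate 1 and 0 counts in the other 7 samples, and *Wif1* had 33 counts in female replicate 1 and 0 in the others. *Rspo3* made up 66.7% of the summed R-spondin level at 0.837 ± 0.264 CPM per kb. Of its receptors, *Lgr4* was 17.9 ± 3.01 CPM per kb, *Lgr6* was 3.94 ± 0.827 CPM per kb and *Lgr5* was 0.287 ± 0.143 CPM per kb, in this order in all 7 samples. *Znrf3* was 6.46 ± 0.999 CPM per kb and *Rnf43* was 0.934 ± 0.380 CPM per kb.

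Of the regulators inside the cell, *Axin1*, the scaffold of the destruction complex, was 11.7 ± 3.96 CPM per kb (SD, n = 7). *Nkd2* was 3.88 ± 1.55 CPM per kb, *Axin2* was 3.30 ± 1.22 CPM per kb and *Nkd1* was 1.12 ± 0.349 CPM per kb. *Ctnnb1*, which encodes beta-catenin, had a higher mean than any other member, 42.6 ± 39.4 CPM per kb, with an SD close to the mean. That rank rests on 3 of the 7 samples, female replicates 1 to 3, with 74.5 to 92.2 CPM per kb. In the other 4 it was 9.40 to 12.9 CPM per kb, below *Lgr4* at 13.2 to 18.5 CPM per kb and *Sfrp5* at 13.3 to 23.9 CPM per kb. Of its partners, *Tcf7l2* was 6.92 ± 1.44 CPM per kb, *Tcf7l1* was 4.50 ± 1.48 CPM per kb, *Tcf7* was 1.93 ± 0.387 CPM per kb and *Lef1* was 0.212 ± 0.0654 CPM per kb.

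The second question was whether the members differ between male and female gonadotropes. The retained males were compared with the 4 females by edgeR's quasi-likelihood test over all genes, and an adjusted p (Benjamini-Hochberg) under 0.05 was the threshold. Of the 60 members, 44 had enough counts for the test. One of them, *Axin2*, passed the threshold and was lower in males, which is 2.27% of the 44, and 2.34% of the 20152 genes tested passed (1.35% lower and 0.983% higher in males). The share of members was thus near that of all genes. By unadjusted p under 0.05 there were 9 members, all lower in males, and 19.9% of all genes had such a p (10.6% lower and 9.31% higher in males). The median log2 fold change (male over female) was -0.29 over the 44 members and -0.03 over all genes tested, and it was negative for 32 members (72.7%) and for 52.1% of all genes. With library size in place of the TMM factors, the median over all genes moved to -0.24 and that over the members to -0.50.

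In 8 of the 44 members (18.2%) the CPM of the retained males and of the females did not overlap, and all 8 were lower in males. Over all genes tested, 22.3% did not overlap, 10.8% being lower and 11.5% higher in males. The 8 members were the ligands *Wnt9a* and *Wnt4*, the receptors *Fzd2* and *Fzd8*, the inhibitor *Sfrp1*, *Rspo3*, *Axin2* and *Tcf7l1*. *Sfrp1* had 15, 0 and 0 counts in the retained males and passed the count filter only through the females. Its direction was therefore partly set by the filter, also among the 9 members with an unadjusted p under 0.05. With library size alone, 12 members were lower and 0 were higher without overlap, and the shares of all genes were 19.9% and 5.35%. With DESeq2, 5 members (11.4% of the 44) passed the threshold, *Axin2*, *Ctnnb1*, *Fzd2*, *Wnt4* and *Wnt9a*, and 11.6% of all genes did. When both fits were checked on simulated counts, many DESeq2 calls were false.

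**Figure D2:**
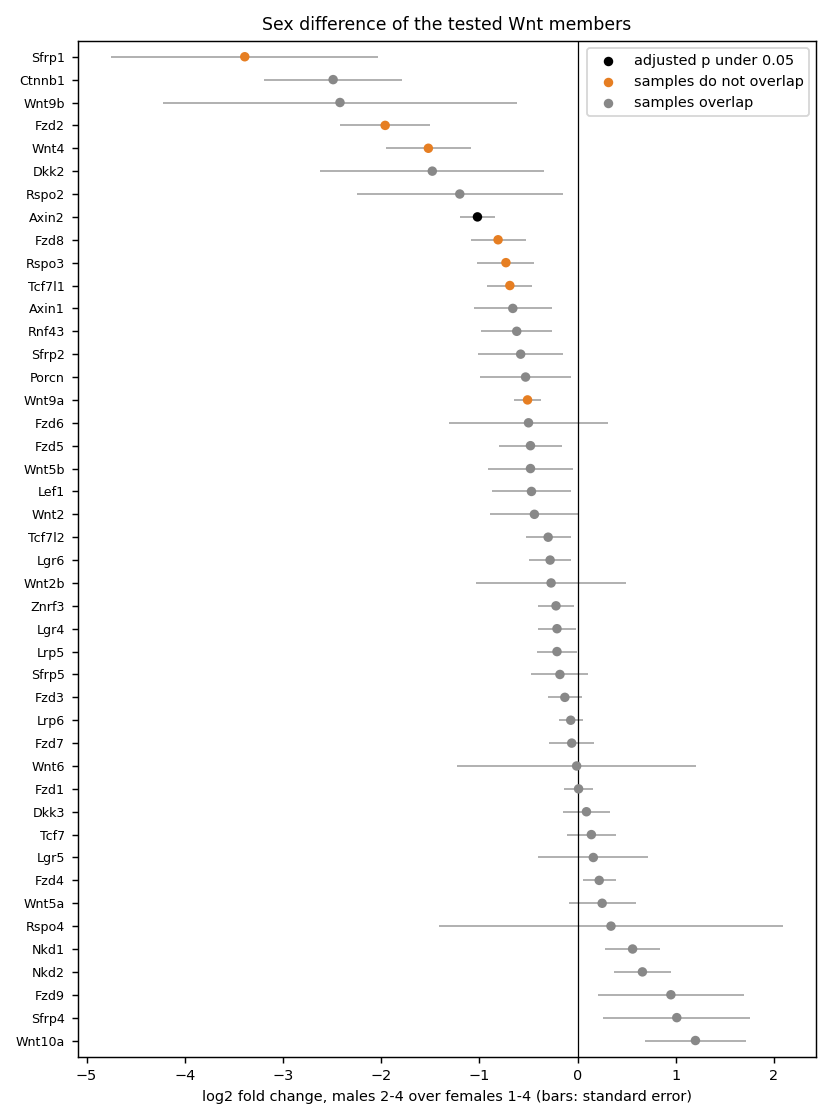
Log2 fold change, male replicates 2 to 4 over female replicates 1 to 4, of the 44 tested members, with the standard error as bars. The black point is *Axin2*, the one member past the threshold, orange points are members whose samples do not overlap between the sexes, all on the side lower in males, and grey points are members whose samples overlap.

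*Axin2* encodes an inhibitor of the pathway that is itself a widely used target of beta-catenin, and it lies at chr11:108920349-108950783 on the plus strand (GENCODE M21, mm10). It was 27.7, 23.6, 23.0 and 18.1 CPM in female replicates 1 to 4 and 11.6, 11.7 and 11.5 CPM in the retained males. The males were nearly identical, and the lowest female lay above them. Mean levels were 11.6 ± 0.0844 CPM (SD, n = 3) in males and 23.1 ± 3.93 CPM (SD, n = 4) in females. The fitted log2 fold change was -1.02 (SE 0.18), with an adjusted p of 0.0442 by edgeR. Male replicate 1 was 16.5 CPM, between both groups. The call was narrow: without any 1 of the 7 samples the adjusted p was between 0.0511 and 0.146, and over 15 alternatives it was between 3.9e-05 (DESeq2) and 0.251, with 5 of them under the threshold. The log2 fold change was between -1.24 and -0.85 over these alternatives. In bulk samples such as these, fewer cells of a type and less RNA per cell cannot be told apart. Of the exon bases of *Axin2*, 3.80% overlap *Gm11670*, and the library kit does not mark strand.

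**Figure D3:**
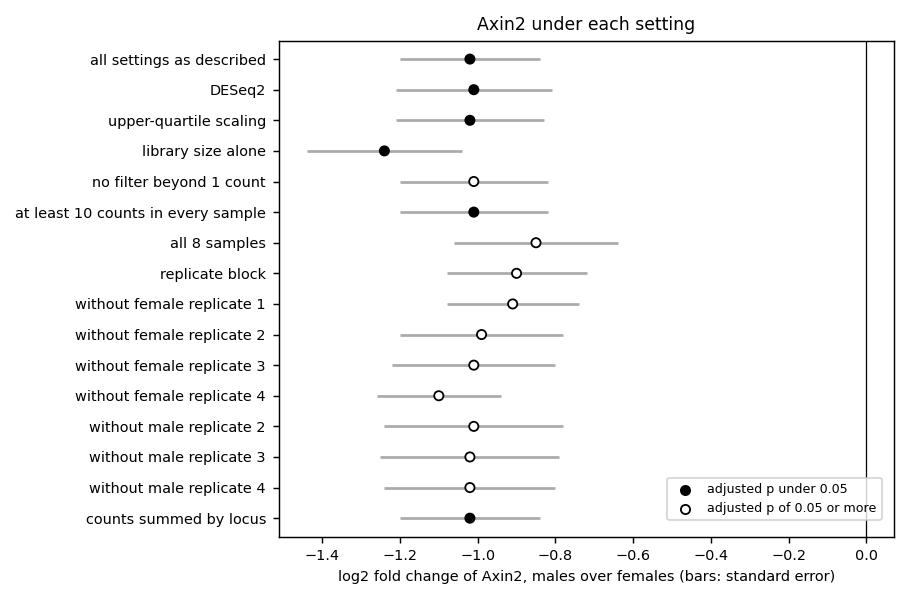
Log2 fold change of *Axin2* (male over female) on the x axis, with the standard error as bars, under the settings as described and each of 15 alternatives. Filled points have an adjusted p under 0.05 and open points do not; the change lies between -1.24 and -0.85 in all of them.

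Markers of stem or folliculostellate cells, the supporting cells of the pituitary, moved in both directions between the sexes. All 5 markers of the list were found, and their summed level was 251 to 299 CPM in the retained males and 307 to 546 CPM in females. *Sox9* was lower in males, with 108 to 135 CPM in males and 193 to 304 CPM in females (log2 fold change -1.02, adjusted p = 0.0417 by edgeR). This call was lost when any 1 sample was left out (adjusted p between 0.0580 and 0.135) and with all 8 samples (log2 fold change -0.69, adjusted p = 0.438). *Sox2* was between 29.8 and 37.1 CPM in males and between 49.5 and 77.8 CPM in females (adjusted p = 0.0748 by edgeR). *Aldh1a2* overlapped, with 76.4 to 98.5 CPM in the retained males and 59.2 to 151 CPM in females (log2 fold change -0.02, adjusted p = 0.981 by edgeR). *Lcn2* was higher in males (log2 fold change 2.13, adjusted p = 0.0417 by edgeR, between 0.0359 and 0.127 with 1 sample left out and 0.0666 with all 8), *S100b* was at most 1.47 CPM, and no marker of the list was at 0 in every sample. In male replicate 1 the sum was 461 CPM. Summed stromal markers were between 98.5 and 105 CPM in males and between 102 and 147 CPM in females, and summed endothelial markers were between 408 and 557 CPM and between 406 and 528 CPM. Of the 36 markers of cells other than gonadotropes, the sexes overlapped in 28. The other 8 (22.2%, beside 22.3% of all genes) were *Sox2*, *Sox9*, *Col1a1* and *Hbb-bs*, lower in males, and *Gh*, *Lcn2*, *Rgs5* and *Tshb*, higher in males, and 2 of them, *Sox9* and *Lcn2*, passed the test. *Gh* had a log2 fold change of 1.14 (adjusted p = 0.289 by edgeR). *Tshb*, the thyrotropin gene of thyrotropes, was 20.9 to 83.5 CPM in females and 235 to 339 CPM in males (log2 fold change 2.35, adjusted p = 0.0525 by edgeR). *Rgs5*, a pericyte gene, was 85.4 to 123 CPM in females and 147 to 399 CPM in males (log2 fold change 1.32, adjusted p = 0.0778 by edgeR). The other pericyte markers overlapped, with a log2 fold change of -0.79 for *Pdgfrb* and -0.23 for *Cspg4*. *Col1a1*, a collagen gene of the stromal list, was 2.95 to 4.27 CPM in the retained males and 5.37 to 13.1 CPM in females (log2 fold change -1.25, adjusted p = 0.0945 by edgeR). *Hbb-bs*, a globin gene of the erythroid list, was 20.8 to 53.6 CPM and 62.7 to 217 CPM (log2 fold change -1.54, adjusted p = 0.158 by edgeR), and the erythroid sum overlapped, with 80.9 to 222 CPM in males and 183 to 579 CPM in females. The part of these cells in the differences of the members was not tested.

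**Figure D4:**
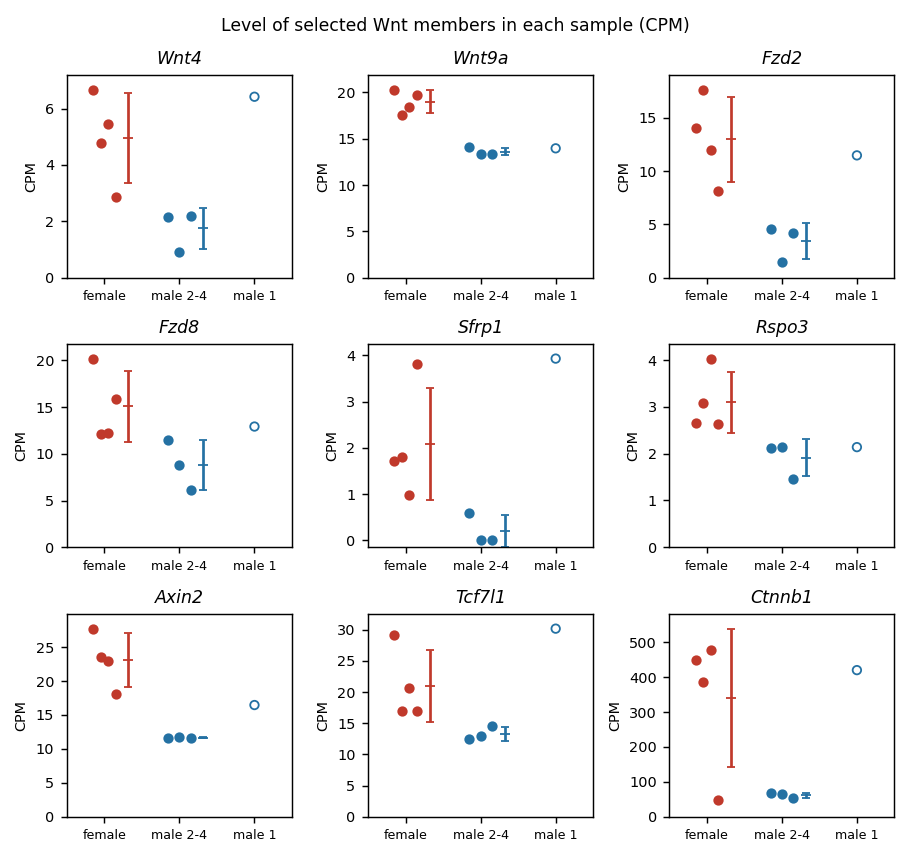
CPM in each sample for the 8 members whose groups do not overlap and for *Ctnnb1*. Red points are the 4 females, filled blue points are male replicates 2 to 4, the open point is male replicate 1, and bars are the mean with SD of the filled points of each sex. In *Ctnnb1* female replicate 4 lies with the males and male replicate 1 with female replicates 1 to 3.

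Of the ligands, *Wnt9a* lies at chr11:59306928-59333552 on the plus strand. It was 20.3, 17.6, 18.5 and 19.8 CPM in female replicates 1 to 4 and 14.1, 13.4 and 13.4 CPM in the retained males, and the groups did not overlap. With a log2 fold change of -0.51 (SE 0.14), the adjusted p was 0.101 by edgeR, over the threshold. DESeq2 gave an adjusted p of 0.00327. Male replicate 1, at 14.0 CPM, lay with the other males. *Wnt4*, a ligand with roles in the development of the ovary and the pituitary, lies at chr4:137277489-137299726 on the plus strand. It was 6.67, 4.78, 5.46 and 2.85 CPM in females and 2.17, 0.906 and 2.18 CPM in the retained males. The lowest female was above the highest male by less than 1 CPM, and male replicate 1, at 6.42 CPM, lay among the females. Its log2 fold change was -1.52 (SE 0.43) with an adjusted p of 0.114 by edgeR.

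*Wnt10a*, at chr1:74791516-74804179 on the plus strand, was the ligand with the widest spread in CPM, though not relative to its mean. It was 4.75, 8.15, 7.98 and 9.90 CPM in females, 6.78, 14.9 and 32.2 CPM in the retained males and 2.27 CPM in male replicate 1. The sexes overlapped, and the male SD of 13.0 CPM (n = 3) rests largely on male replicate 4. Its log2 fold change was 1.20 (SE 0.51, adjusted p = 0.254 by edgeR), and it was 0.45 without male replicate 4. The 6 other ligands in the test, *Wnt2*, *Wnt2b*, *Wnt5a*, *Wnt5b*, *Wnt6* and *Wnt9b*, had adjusted p between 0.526 and 0.997 by edgeR. The highest of them in CPM was *Wnt5a*, with 6.93 ± 1.91 CPM in females (SD, n = 4) and 8.43 ± 3.33 CPM in males (SD, n = 3). *Porcn* was 5.09 ± 1.48 CPM in females and 3.59 ± 2.18 CPM in males (adjusted p = 0.598 by edgeR).

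Of the frizzled receptors, *Fzd2* had the largest difference, and it lies at chr11:102604396-102608058 on the plus strand. It was 14.1, 17.7, 12.0 and 8.17 CPM in female replicates 1 to 4 and 4.57, 1.47 and 4.18 CPM in the retained males. Every female was above every one of these males, whereas male replicate 1, at 11.5 CPM, lay inside the female range. Mean levels were 3.41 ± 1.69 CPM (SD, n = 3) in males and 13.0 ± 3.96 CPM (SD, n = 4) in females. The fitted log2 fold change was -1.96 (SE 0.46) with an adjusted p of 0.0748 by edgeR, which did not pass. The adjusted p was 0.00136 with DESeq2 and 0.0497 with library size alone. With all 8 samples the log2 fold change was -1.26 (adjusted p = 0.497 by edgeR), and with a replicate block it was -1.98 (adjusted p = 0.267 by edgeR). *Fzd8* was 20.1, 12.1, 12.2 and 15.9 CPM in females, 11.5, 8.83 and 6.18 CPM in the retained males and 12.9 CPM in male replicate 1. The highest of these males lay just under the lowest female, and the log2 fold change was -0.81 (SE 0.28, adjusted p = 0.180 by edgeR).

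The 4 most abundant frizzled receptors per length did not pass the test, and their log2 fold changes were small. *Fzd3* was 153, 110, 120 and 132 CPM in females and 139, 122 and 99.3 CPM in the retained males, with a log2 fold change of -0.13 (SE 0.17, adjusted p = 0.739 by edgeR). *Fzd4*, a receptor for norrin as well as for Wnt ligands, was 69.2, 50.7, 60.3 and 50.8 CPM in females and 79.9, 65.6 and 61.2 CPM in males, with a log2 fold change of 0.22 (SE 0.17, adjusted p = 0.539 by edgeR). The groups of both overlapped. *Fzd7* was between 24.1 and 43.2 CPM in females and between 27.5 and 34.5 CPM in males (log2 fold change -0.06, SE 0.23, adjusted p = 0.918 by edgeR). *Fzd1* was between 20.6 and 25.1 CPM in females and between 20.6 and 24.6 CPM in males (log2 fold change 0.01, SE 0.15, adjusted p = 0.974 by edgeR). The sign of these 2 small values changed under some alternatives. *Fzd5* was between 13.7 and 15.5 CPM in females and was 10, 6.0 and 15.7 CPM in the retained males. Its log2 fold change was -0.48 (SE 0.32, adjusted p = 0.466 by edgeR), and it was -0.89 without male replicate 4 and -0.19 without male replicate 3. Of its exon bases, 17.8% overlap *Gm38058*.

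The co-receptors did not pass the test. *Lrp6* was 76.4, 70.1, 71.8 and 74.0 CPM in females and 76.3, 65.6 and 71.6 CPM in the retained males, and male replicate 1 was 70.6 CPM. All 8 samples lay in a narrow range, and the log2 fold change was -0.07 (SE 0.12, adjusted p = 0.821 by edgeR). *Lrp5* was between 9.67 and 14.0 CPM in females and between 8.99 and 11.6 CPM in males, with a log2 fold change of -0.21 (SE 0.20, adjusted p = 0.647 by edgeR). Male replicate 1 had the highest *Lrp5* level of the 8 samples, 19.1 CPM.

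Of the secreted inhibitors, *Sfrp1*, at chr8:23411502-23449632 on the plus strand, was 1.71, 1.80, 0.982 and 3.80 CPM in females and 0.591, 0 and 0 CPM in the retained males. The limit that a count of 0 allows was 0.113 CPM in male replicate 3 and 0.136 CPM in male replicate 4. Male replicate 1, at 3.93 CPM, was the highest of the 8 samples. The fitted log2 fold change of -3.39 (SE 1.36, adjusted p = 0.228 by edgeR) is no bound, since it depends on how counts of 0 are fitted. It was -8.69 without male replicate 2, the one retained male with counts (adjusted p = 0.0917), and -0.87 with all 8 samples (adjusted p = 0.902). The abundant inhibitors overlapped between the sexes. *Sfrp5* was 55.6, 29.3, 33.9 and 34.9 CPM in females and 25.3, 45.4 and 32.9 CPM in males, with a log2 fold change of -0.18 (SE 0.29, adjusted p = 0.796 by edgeR). *Dkk3* was 52.8, 37.6, 49.7 and 27.4 CPM in females and 47.8, 40.3 and 48.1 CPM in males, with a log2 fold change of 0.09 (SE 0.24, adjusted p = 0.893 by edgeR), and it was -0.13 with library size alone.

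*Rspo3*, at chr10:29452416-29535867 on the minus strand, was 2.65, 3.07, 4.02 and 2.64 CPM in females and 2.13, 2.15 and 1.45 CPM in the retained males. The groups did not overlap, male replicate 1 at 2.14 CPM lay with the other males, and the log2 fold change was -0.73 (SE 0.29, adjusted p = 0.224 by edgeR). Of its exon bases, 13.1% overlap *Gm48159*. The receptors of R-spondins overlapped between the sexes. *Lgr4* was 97.2, 129, 123 and 93.6 CPM in females and 108, 109 and 77.5 CPM in males, with a log2 fold change of -0.21 (SE 0.19, adjusted p = 0.617 by edgeR). *Lgr6* was between 22.1 and 38.8 CPM in females and between 23.2 and 25.0 CPM in males, with a log2 fold change of -0.28 (SE 0.21, adjusted p = 0.533 by edgeR). *Lgr5*, a stem cell marker in the intestine, was between 1.80 and 4.75 CPM in females and between 1.10 and 4.81 CPM in males. The ligase *Znrf3* was 56.1, 51.8, 60.7 and 46.3 CPM in females and 58.4, 40.5 and 42.9 CPM in males, with a log2 fold change of -0.22 (SE 0.18, adjusted p = 0.581 by edgeR).

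The 3 other negative regulators inside the cell did not pass the test. *Axin1*, at chr17:26138688-26195811 on the plus strand, was 60.2, 56.3, 45.0 and 48.9 CPM in females, 13.8, 47.6 and 40.5 CPM in the retained males and 56.5 CPM in male replicate 1. Male replicate 2 stood apart, and the log2 fold change of -0.66 (SE 0.40, adjusted p = 0.426 by edgeR) was -0.28 without it. *Nkd2*, which encodes a protein that binds dishevelled and dampens the signal, lies at chr13:73818534-73847631 on the minus strand. It was 14.5, 12.8, 16.9 and 15.1 CPM in females, 28.8, 30.2 and 12.9 CPM in the retained males and 29.7 CPM in male replicate 1. Of the 4 males, 3 were near 30 CPM and male replicate 4 was within the female range. For *Nkd2* the log2 fold change was 0.66 (SE 0.29, adjusted p = 0.269 by edgeR), and without male replicate 4 it was 0.95 (adjusted p = 0.0777). *Nkd1* was 4.19 ± 1.14 CPM in females (SD, n = 4) and 6.35 ± 1.28 CPM in males (SD, n = 3), with an adjusted p of 0.331 by edgeR.

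*Ctnnb1*, at chr9:120929216-120960507 on the plus strand, took 2 levels, each with samples of both sexes. It was 448, 387 and 478 CPM in female replicates 1 to 3 and 48.8 CPM in female replicate 4. It was 67.1, 65.0 and 53.9 CPM in the retained males and 420 CPM in male replicate 1. The high and the low samples were both far above the counting floor, with between 7934 and 15591 counts in the 4 high samples and between 1129 and 1723 counts in the 4 low samples. Over the 7 samples the log2 fold change was -2.49 (SE 0.70, adjusted p = 0.115 by edgeR) and p = 0.143 by the two-sided exact permutation test. Without female replicate 4 it was -2.83 (adjusted p = 0.00609), and with all 8 samples it was -1.17 (adjusted p = 0.739). The entry is an assembled locus that also carries the symbol *Mir7090*, and 15.1% of the exon bases of *Ctnnb1* overlap *Ulk4* or *Mir7090*. How the reads of this locus were divided in the samples was not tested. Of the 21 members with a mean of at least 10 CPM, 3 had a highest sample at least 4 times the lowest of the 8, *Ctnnb1*, *Axin1* and *Wnt10a* (14.3%), and 26.1% of all entries at that level did.

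Of the transcription factors, *Tcf7l1*, a repressor of target genes in many cells, lies at chr6:72626378-72789254 on the minus strand. It was 29.2, 16.9, 20.6 and 17.0 CPM in females and 12.4, 12.9 and 14.5 CPM in the retained males, and the groups did not overlap. Male replicate 1 was 30.2 CPM, above every other sample. The log2 fold change was -0.69 (SE 0.23) with an adjusted p of 0.166 by edgeR. *Tcf7l2* was 60.9, 63.1, 76.1 and 61.6 CPM in females and 72.0, 53.8 and 37.5 CPM in males, with a log2 fold change of -0.30 (SE 0.23, adjusted p = 0.538 by edgeR). *Tcf7* and *Lef1* had adjusted p of 0.833 and 0.591 by edgeR. Male replicate 1 lay outside the range of the other 3 males in all 4 transcription factors, in 25 of the 44 tested members (56.8%) and in 69.9% of all genes tested, a larger share than among the members.

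The other genes of the pathway were described from a list of 58 symbols chosen from general knowledge, of which 57 were found and 53 tested. Of these, 2 passed the threshold and both were lower in males, which is 3.77%, beside 2.34% of all genes. *Pygo2*, a nuclear co-factor of beta-catenin, was 38.7, 41.6, 42.7 and 41.7 CPM in females, 22.9, 24.2 and 21.7 CPM in the retained males and 55.1 CPM in male replicate 1, with a log2 fold change of -0.88 (SE 0.13, adjusted p = 0.0311 by edgeR). *Apc2*, a relative of the destruction complex scaffold *Apc*, was 11.6, 20, 16.3 and 10.8 CPM in females, 5.0, 4.30 and 5.0 CPM in the retained males and 11.6 CPM in male replicate 1, with a log2 fold change of -1.65 (SE 0.27, adjusted p = 0.0376 by edgeR). Both calls were lost when any 1 sample was left out, with an adjusted p between 0.0514 and 0.111 for *Pygo2* and between 0.0539 and 0.136 for *Apc2*. The groups did not overlap for 14 of the 53 genes (26.4%), 12 lower and 2 higher in males, beside 22.3% of all genes (10.8% lower and 11.5% higher). Of the genes with the next smallest p, *Btrc*, the subunit of a ubiquitin ligase that recognises beta-catenin, had a log2 fold change of 0.91 (adjusted p = 0.0525 by edgeR) and *Tspan12*, a partner of *Fzd4*, one of 0.85 (adjusted p = 0.0788). The kinase *Gsk3a* had a log2 fold change of -0.69 (adjusted p = 0.0608 by edgeR) and the receptor *Ptk7* one of -0.71 (adjusted p = 0.0631).

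Of 15 genes widely used as readouts of beta-catenin, 13 were tested and 1 passed, *Axin2*, which is a member (7.69%, beside 2.34% of all genes). Of the 7 readout genes that are no members, 6 were tested, 0 passed the threshold with edgeR or with DESeq2 and 1 had an unadjusted p under 0.05. That gene was *Tnfrsf19*, at 6.20, 6.63, 6.48 and 2.42 CPM in females and 3.51, 1.62 and 1.95 CPM in males, with a log2 fold change of -1.23 (SE 0.45, adjusted p = 0.189 by edgeR). *Ccnd1*, which encodes cyclin D1, was between 162 and 230 CPM over the 8 samples, with a log2 fold change of -0.03 (SE 0.16, adjusted p = 0.954 by edgeR). *Sp5* had a count in male replicate 1 alone, at 0.175 CPM. No test compared *Axin2* with these genes.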

How the data were processed

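RNA of 4 male and 4 female samples of sorted EGFP-positive gonadotropes was extracted with the RNeasy micro kit and made into libraries with the NEBNext Single Cell/Low Input kit, which does not mark strand. The authors trimmed reads with cutadapt, mapped them to mm10 (GRCm38) with STAR and deposited raw counts per gene from featureCounts, in 1 table of 55523 entries. Of the members, 40 are named by an assembled locus and 20 by an Ensembl gene, and the assembly step is not given in the sources used here. Depth was between 18774578 and 31302588 counts per sample.

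Counts were converted to CPM with TMM factors over the 8 samples. Males 2 to 4 and all 4 females were compared in edgeR 4.0.16 (R 4.3.3) by the quasi-likelihood test after filterByExpr, with Benjamini-Hochberg adjustment over the 20152 genes tested. The SE of a log2 fold change is its size divided by the square root of F. *Ctnnb1* was also tested by a two-sided exact permutation test on mean log2(CPM + 1). The edgeR and DESeq2 fits were checked on simulated counts, where edgeR recovered few of the genes with changes of the size of that of *Axin2* and many DESeq2 calls were false. Exon lengths and positions come from GENCODE M21 and promoter sequences from RefSeq GRCm38.p6.

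Alternatives were all 8 samples, a replicate block, DESeq2 1.42.0, no low-count filter (beyond 1 count), a filter of 10 counts in every sample, scaling by library size or upper quartile, counts summed by locus, leaving out each sample, and for detection 5 CPM, 10 counts or all 4 males. Values per sample, or their range, are given for members past the threshold, for tested members whose groups do not overlap, and for members with a mean of at least 10 CPM, and of the other lists for genes past the threshold and at most 5 more with the smallest p. *Ccnd1* and *Sp5* were named after their values were seen. The members, lists and rules were chosen with earlier results of these data known.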

Additional observations from a re-analysis of the deposited data

Results flagged for a closer look

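In groups of 4 samples, 8 of the 50 groups formed by the 25 members described per sample had 1 sample far from the other 3 by Dixon's criterion, 6 of 25 in the males and 2 of 25 in the females. Chance alone gives about 1 in 20 groups, and over all 20152 genes tested it was 11.6% in the males, 7.64% with male replicate 1 as the far sample, and 7.82% in the females. The 1 in 20 rate does not apply to *Sfrp1* and *Rspo3*, which were described only because the retained males lay apart from the females. In male replicate 1 these were *Axin2* at 16.5 CPM beside 11.5 to 11.7 CPM in the other males, *Ctnnb1* at 420 CPM beside 53.9 to 67.1 CPM, *Tcf7l1* at 30.2 CPM beside 12.4 to 14.5 CPM and *Sfrp1* at 3.93 CPM beside 0 to 0.591 CPM. In male replicate 4 they were *Nkd2* at 12.9 CPM beside 28.8 to 30.2 CPM and *Rspo3* at 1.45 CPM beside 2.13 to 2.15 CPM. In the females they were *Fzd1* in replicate 1, at 25.1 CPM beside 20.6 to 20.9 CPM, and *Tcf7l2* in replicate 3, at 76.1 CPM beside 60.9 to 63.1 CPM.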

How the results depend on the processing

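The number of genes past the threshold, 471, was 2329 with DESeq2, 808 with library size alone (133 higher and 675 lower in males, beside 198 and 273), 177 without the filter, 67 with all 8 samples and between 88 and 171 with 1 sample left out. For the members, 1 became 5 with DESeq2, 3 with library size alone, and 0 without the filter and with all 8 samples. In these last 2 settings 11 of 55 and 5 of 43 members had an unadjusted p under 0.05. With 1 sample left out the number past the threshold was 0 to 1, the 1 being *Ctnnb1* without female replicate 4. Of the 43 to 47 members then tested, 7 to 10 had an unadjusted p under 0.05. For the other pathway genes, 2 became 6 with DESeq2, 4 with library size alone, and 0 without the filter, with all 8 samples and with any 1 sample left out (0 to 0), and for the readout genes 1 became 0 in these last 3 settings. An unadjusted p under 0.05 was then found for 12 of 56, 2 of 53 and 7 to 13 of 53 to 54 other pathway genes. For the 13 readout genes it was found for 2, 3 and 1 to 3. Over all genes the same 3 settings gave 4327 of 31480, 1997 of 19587 and 3052 to 3913 of 19460 to 21143 genes with such a p. The females had 22 members at 5 CPM, in place of 35 at 1 CPM. At 5 CPM the number was no longer higher in females than in the retained males. *Wnt10a* and *Sfrp4* reached it in every retained male (lowest 6.78 and 5.40 CPM) but not in every female (lowest 4.75 and 0.338 CPM). *Fzd2* reached it in the females alone.

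The log2 fold change of *Axin2* was -1.01 (adjusted p = 0.0731 by edgeR) without the filter, -0.85 (0.177) with all 8 samples and -1.10 to -0.91 with 1 sample left out. Same-numbered male and female samples correlated between -0.0303 and 0.0150 in their deviations, and 2 of 3 males correlated best with another number. This check showed no pairing by number, but with so few samples it cannot exclude that same-numbered samples were prepared together. With the replicate block, 0 genes, 0 members, 0 other pathway genes and 0 readout genes passed. An unadjusted p under 0.05 was found for 2959 of 19759 genes, 3 of 43 members, 8 of 53 other pathway genes and 1 of 13 readout genes. In this setting *Axin2* was -0.90 (adjusted p = 0.251 by edgeR), *Fzd7* 0.14 and *Sfrp5* 0.03.

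Over 374 values of the 25 members described per sample, 346 kept their direction and side of the threshold, 7 passed it, 10 lost it and 11 changed sign, all in members with small changes. The others that changed sign were *Fzd1* (-0.20 with library size alone, -0.05 to 0.11 with 1 sample left out), *Fzd7* (-0.15 to 0.14 with 1 sample left out), *Lrp5* (0.11 with all 8 samples), *Dkk3* (-0.13 with library size alone, -0.05 without female replicate 4 and up to 0.24 with 1 other sample left out) and *Sfrp5* (-0.42 to 0.07 with 1 sample left out). The causes were not tested. Whether depth limited the detection of the members under 1 CPM was not tested either.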

Other observations

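Uneven levels between samples were also seen in other genes of the pathway, and the genes named here were chosen after their values were seen. Of the 41 listed genes with a mean of at least 10 CPM, 11 had a highest sample at least 4 times the lowest (26.8%, beside 26.1% of all entries at that level). *Csnk1d*, a kinase of the casein kinase family, had 2.32 CPM in male replicate 4, whereas the other 7 samples ranged from 149 to 201 CPM. *Wls*, which encodes the carrier that brings Wnt ligands to the cell surface, had 14.2 CPM in female replicate 1 and 25.8 CPM in male replicate 4, whereas the other 6 samples ranged from 61.7 to 110 CPM. *Dvl1*, which encodes a dishevelled protein, was between 1.66 and 2.05 CPM in 4 samples of both sexes and between 20.1 and 36.5 CPM in the other 4. In *Wls* and *Dvl1* the low and the high set each held samples of both sexes.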
